A study of Mus musculus with 7 samples.

Results

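Muscle ankyrin repeat, Xin repeat and LIM domain proteins, with skeletal α-actin, form a group of striated muscle genes known for responding to stretch and load. The group examined here was listed by symbol, with earlier results of these data known, as Ankrd1, Ankrd2, Ankrd23, Xirp1, Xirp2, Csrp3, Acta1, Fhl1, Fhl2 and Nrap. Of these 10 genes, 9 have a row among the 13788 genes of the deposited expression table. Ankrd2 has no row and was not analysed here. The libraries labelled edKO came from whole hearts of newborn C57BL/6 mice at postnatal day 0 in which both retinoid X receptors, RXRα and RXRβ, were deleted in cardiomyocytes only (n = 4, replicates 5, 6, 15 and 33). The WT libraries came from whole hearts of wild-type newborns of the same strain and age (n = 3, replicates 1, 2 and 28). No source used here gives the Cre driver, the sex of the newborns, their litters or whether WT newborns carried floxed alleles. These receptors act on DNA as the shared partner of many other nuclear receptors.

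In the heart muscle cell, titin spans the sarcomere from Z-disc to M-band, and its elastic I-band segment lengthens when the muscle is stretched. Ankrd1 and Ankrd23 bind the N2A part of that segment, Fhl1 and Fhl2 bind the N2B part, and Csrp3 sits at the Z-disc, where the thin actin filaments of neighbouring sarcomeres are anchored. Xirp1, Xirp2 and Nrap bind actin at the intercalated disc, the junction through which one cardiomyocyte pulls on the next. Ankrd1 and Acta1 are textbook genes of the rodent heart's response to mechanical overload, and Acta1 is also an actin of the fetal rodent heart.

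Rxra, the gene of RXRα, had 64.1, 75.5, 65.3 and 59.5 normalised reads per 1000000 in edKO hearts, against 59.3, 62.8 and 62.7 in WT hearts (limma adjusted p = 0.632). Rxrb had 34.2, 38.5, 38.7 and 44 in edKO hearts, against 45.5, 51.7 and 47.3 in WT hearts, and did not pass the test although the groups do not overlap (limma adjusted p = 0.139). Values over a whole gene in a whole heart, in which other cell types keep both genes, did not show the deletion for Rxra, so the directions given below are those between libraries as labelled. The recovered read total ran between 12108464 and 24912403 over the 7 libraries, and 3 reads, the floor set for a count of 0, came to between 0.122 and 0.262 normalised reads per 1000000. All 9 genes lay far above that floor in every library. The 10 cardiomyocyte marker genes summed to between 42154 and 45309 in edKO hearts and between 43319 and 46336 in WT hearts, with none of the 10 called.

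Upstream sequences are shown because several of the listed genes are classical targets of factors that read DNA next to their start sites. SRF reads the CArG box, a run of A and T between a CC and a GG. TEAD factors, the partners of YAP, read CATTCC, the M-CAT element. Nuclear receptors that pair with RXR read AGGTCA, and Nkx2-5 reads TNAAGTG. RefSeq promoter windows of build GRCm38.p6, covering 250 bases before to 50 bases after an annotated start, were found for 9 of the 10 genes, Ankrd2 included, as 13 windows. Xirp1 had no entry. Each motif was searched on both strands. The stretches below hold the upstream CArG boxes, in capitals, with 10 bases on either side, read 5′ to 3′ on the gene's own strand.
Acta1 (chr8:123894829-123894858, minus strand), 73 bases before the start: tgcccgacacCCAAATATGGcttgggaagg
Fhl1 (chrX:56779571-56779600, plus strand), 102 bases before the start: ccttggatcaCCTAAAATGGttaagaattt
Fhl2, at the first start (chr1:43196838-43196867, minus strand), 96 bases before the start: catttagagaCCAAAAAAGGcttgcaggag
Fhl2, at the second start (chr1:43163973-43164002, minus strand), 31 bases before the start: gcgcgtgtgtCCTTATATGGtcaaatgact
Actc1, the cardiac α-actin (chr2:114052903-114052932, minus strand), 47 bases before the start: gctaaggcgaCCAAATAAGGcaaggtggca

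A CArG box was found in 4 of the 13 windows of listed genes, against 1.63% of 32851 mouse promoter windows of the same length. Among listed genes these windows belong to Acta1, Fhl1 and Fhl2, and none of the 3 passed the test between edKO and WT hearts. The M-CAT motif was found in 4 of the 13 windows, against 14.7% of all windows. Its upstream matches are shown next, in capitals, with GGAATG marking a match on the opposite strand; the match in the window of the first Ankrd23 start lies 36 bases after it. All 250 upstream bases of the Ankrd1 window fall in GENCODE exon sequence within the span of the gene. GENCODE thus places the outermost start farther upstream than RefSeq. The same holds for the first start of Fhl2, with 223 of 250 bases in a GENCODE exon, among them all 30 bases of the stretch shown. All 250 upstream bases at the first start of Ankrd23 also fall in a GENCODE exon. Whether that exon belongs to Ankrd23 or to the overlapping predicted gene Gm42417 was not checked.
Ankrd1 (chr19:36120039-36120064, minus strand), 210 bases before the start: cactgccaaaGGAATGaccctctcac
Ankrd1 (chr19:36119952-36119977, minus strand), 123 bases before the start: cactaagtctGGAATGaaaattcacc
Ankrd23, at the second start (chr1:36535844-36535869, minus strand), 120 bases before the start: cagtgggccaCATTCCcagaacggta
Acta1 (chr8:123894806-123894831, minus strand), 46 bases before the start: agggcagcaaCATTCCttcggggcgg

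Acta1 was the only listed gene with both a CArG box and an M-CAT motif in the same window, and its 150 bases before the start are given whole (chr8:123894776-123894925, minus strand) so that both can be seen in place.
Acta1: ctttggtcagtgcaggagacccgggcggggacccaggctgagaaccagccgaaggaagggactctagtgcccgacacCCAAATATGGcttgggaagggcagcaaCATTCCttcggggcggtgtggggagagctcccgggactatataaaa

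Xirp2, the listed gene with the largest difference described below, had neither motif. It had 1 AGGTCA match, in capitals, on the opposite strand, 140 bases before the start (chr2:67445852-67446001, plus strand).
Xirp2: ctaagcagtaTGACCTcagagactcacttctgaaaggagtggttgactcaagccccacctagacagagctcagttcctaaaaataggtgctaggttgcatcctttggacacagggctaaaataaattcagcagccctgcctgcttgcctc

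AGGTCA was found in 2 of the 13 windows, those of Xirp2 and of the first start of Ankrd23, against 16.3% of all windows. The element DR1, which repeats AGGTCA with 1 base between and is read by RXR with PPARs, was found in 0 of the 13 windows and in 0.0396% of all windows. TNAAGTG was found in 2 of the 13 windows, those of Csrp3 (246 bases before its first start) and Nrap (48 bases before its start), against 11.5% of all windows. A match describes the letters of a window and not binding, and a window without a match says nothing of sites elsewhere.

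Ankrd1, Ankrd23, Xirp2 and Csrp3 were higher in edKO hearts by the test over all 13788 genes (limma on log2(value + 1), Benjamini-Hochberg adjusted p under 0.05), and none of the other 5 genes was called in either direction. The 4 called higher of 9 measured stand against 2.08% of all genes called higher, the 0 called lower against 2.13% called lower, and the 4 called in all against 4.21% called in either direction. In the same 4 genes every edKO heart lay above every WT heart, while the other 5 overlapped; groups that do not overlap were found in 17.4% of all genes. At an unadjusted p under 0.05 there were 5 of the 9 above 0 and 2 below 0, against 19.2% of all genes in either direction. edgeR, DESeq2 and voom on recovered reads also called 0 of the 9 lower. The median log2 difference, edKO minus WT, was 0.40 over the 9 genes and -0.00 over all genes. In whole hearts, a change in the number of cells of a type and a change in RNA per cell cannot be told apart.

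**Figure D1:**
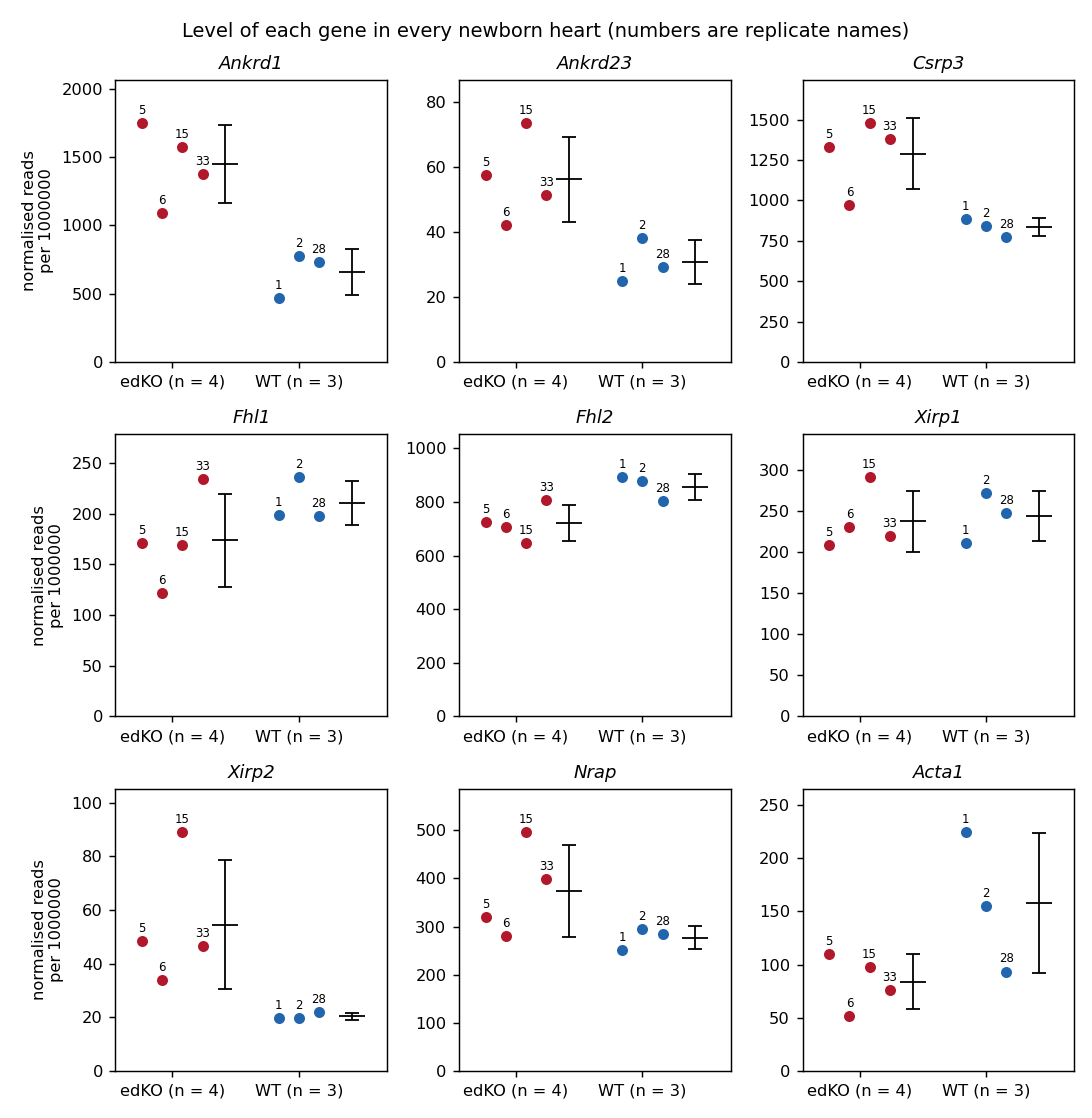
Normalised reads per 1000000 (vertical axes, each starting at 0) of the 9 measured genes in each edKO heart (red, n = 4) and each WT heart (blue, n = 3), with the replicate name over each point and the group mean ± SD to its right. Every edKO point lies above every WT point for Ankrd1, Ankrd23, Csrp3 and Xirp2, and the points of the other 5 genes overlap.

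Among the ankyrin repeat genes, both measured members rose. Ankrd1 encodes the cardiac ankyrin repeat protein CARP, which binds titin and also acts in the nucleus as a cofactor of transcription (chr19:36111961-36120099, minus strand, GRCm38). It had 1751, 1091, 1576 and 1378 normalised reads per 1000000 in edKO replicates 5, 6, 15 and 33, against 466, 779 and 730 in WT replicates 1, 2 and 28. The lowest edKO heart, replicate 6, lay above the highest WT heart, replicate 2. The mean was 1449 ± 283 in edKO hearts (SD, n = 4) and 658 ± 168 in WT hearts (SD, n = 3), a 2.22-fold difference on the log2(value + 1) scale (log2 difference 1.15, SE 0.20, 95% interval 0.72 to 1.58, limma adjusted p = 0.00811). It passed the test whichever library was left out, with limma adjusted p between 0.00564 and 0.0307.

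Ankrd23, which encodes the related protein DARP (chr1:36530188-36536883, minus strand), was far less abundant. Its normalised reads per 1000000 were 57.4, 42.1, 73.6 and 51.5 in edKO hearts, against 24.9, 38.1 and 29.1 in WT hearts, so that the groups were separated by the small gap between edKO replicate 6 and WT replicate 2. The mean was 56.2 ± 13.2 in edKO hearts and 30.7 ± 6.75 in WT hearts, 1.79-fold (log2 difference 0.84, SE 0.18, limma adjusted p = 0.0278). The call was lost without edKO replicate 5 (limma adjusted p = 0.067), edKO replicate 15 (0.0586), WT replicate 1 (0.127) or WT replicate 28 (0.116). Of the 61-base windows of its transcripts, the length of the reads, 74% also occur, matched on either strand, in the predicted gene Gm42417. That gene has no row in the table and its strand was not checked, so reads of the 2 may not be told apart there.

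The ratio of Ankrd1 to Ankrd23 within a heart was 30.5, 25.9, 21.4 and 26.7 in edKO hearts, against 18.7, 20.4 and 25.1 in WT hearts. These overlap, and the difference in log2 ratio, 0.31, did not pass an exact permutation test over the 35 ways to assign the 7 libraries (2-sided p = 0.143, adjusted over 4 gene pairs 0.19). The 2 genes were therefore not shown to differ in the size of their change.

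Of the 3 LIM domain genes without nebulin repeats, Csrp3 rose and neither Fhl gene passed the test. Csrp3 encodes muscle LIM protein, a Z-disc and nuclear protein whose loss causes dilated cardiomyopathy in mice (chr7:48830398-48848033, minus strand). It had 1333, 969, 1480 and 1377 normalised reads per 1000000 in edKO hearts, against 884, 840 and 775 in WT hearts. In edKO hearts, replicates 5, 15 and 33 were far above the WT range, and edKO replicate 6 lay just above WT replicate 1. The mean was 1290 ± 223 in edKO hearts and 833 ± 55.1 in WT hearts, 1.53-fold (log2 difference 0.61, SE 0.14, 95% interval 0.30 to 0.93, limma adjusted p = 0.0376). It held in 2 of the 7 fits that leave out a library, and was lost without edKO replicate 5 (0.0957), edKO replicate 15 (0.0975), WT replicate 1 (0.0839), WT replicate 2 (0.141) or WT replicate 28 (0.145), all limma adjusted p.

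Fhl2, a protein of LIM domains that docks enzymes and signalling proteins on titin (chr1:43123074-43196984, minus strand), ran the other way in its values. It had 724, 707, 648 and 807 normalised reads per 1000000 in edKO hearts, against 892, 878 and 802 in WT hearts. Only edKO replicate 33 reached into the WT range. The log2 difference was -0.25 (SE 0.10, 95% interval -0.48 to -0.03), and it was not called (limma adjusted p = 0.209).

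Fhl1 lies on the X chromosome (chrX:56731787-56793346, plus strand) and encodes the relative of Fhl2 whose mutations cause muscle disease. It had 171, 122, 169 and 234 normalised reads per 1000000 in edKO hearts, against 199, 236 and 198 in WT hearts. Replicate 33 lay within the WT range and the other edKO hearts below it, a log2 difference of -0.31 (SE 0.18, 95% interval -0.70 to 0.07, limma adjusted p = 0.365). Without edKO replicate 6 the log2 difference was -0.15, and without edKO replicate 33 it was -0.47 (limma adjusted p = 0.585 and 0.0542). Xist, the RNA that coats the inactive X chromosome of female cells, was at 441 and 179 in edKO replicates 5 and 6 and at 167 in WT replicate 1, and at 1.93 or less in the other libraries, so the groups did not hold the same mix; its part in the Fhl1 values was not tested beyond a fit with Xist as a covariate, where the log2 difference was -0.24 (limma adjusted p = 0.519). The ratio of Fhl1 to Fhl2 averaged 0.24 ± 0.0501 in edKO hearts and 0.246 ± 0.0227 in WT hearts, a log2 ratio difference of -0.06 with the highest exact permutation p of the 4 pairs.

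Of the 2 Xin repeat genes, Xirp2 rose and Xirp1 was not called. Xirp2 (chr2:67446002-67526614, plus strand) and Xirp1 (chr9:120013755-120023598, minus strand) encode actin-binding proteins of the intercalated disc. Xirp2 had 48.5, 33.8, 89.2 and 46.4 normalised reads per 1000000 in edKO hearts, against 19.6, 19.8 and 21.9 in WT hearts. The WT hearts were nearly equal, while replicate 15 stood well above the other edKO hearts. The coefficient of variation was 44.1% in edKO hearts and 6.04% in WT hearts. The mean was 54.5 ± 24 in edKO hearts and 20.4 ± 1.23 in WT hearts, 2.43-fold (log2 difference 1.28, SE 0.25, 95% interval 0.74 to 1.82, limma adjusted p = 0.015). Leaving out any WT heart ended the call, at limma adjusted p of 0.0755 without replicate 1, 0.0738 without replicate 2 and 0.0603 without replicate 28, while without edKO replicate 15 the log2 difference was 1.02 and the call held (limma adjusted p = 0.00531).

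Xirp1 had 208, 230, 291 and 220 normalised reads per 1000000 in edKO hearts, against 211, 272 and 248 in WT hearts. The groups overlap throughout, with a log2 difference of -0.04 (SE 0.13, 95% interval -0.32 to 0.24, limma adjusted p = 0.881). That interval lies below the one for Xirp2. Within a heart, the ratio of Xirp2 to Xirp1 was 0.234, 0.147, 0.307 and 0.211 in edKO hearts, against 0.093, 0.0728 and 0.0881 in WT hearts. All edKO ratios lay above all WT ratios, a log2 difference of 1.33, and the exact permutation p was 0.0286, the smallest that 35 assignments can give. Adjusted over the 4 gene pairs it was 0.114, the lowest value that a single fully separated pair among 4 can reach, so the adjusted value could not have passed here.

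**Figure D2:**
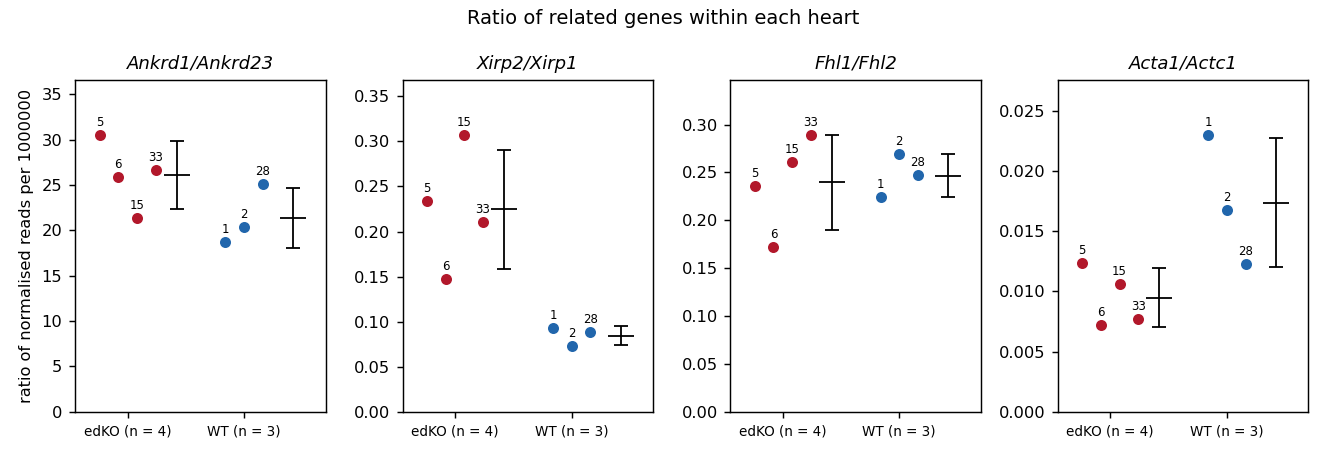
Ratio of normalised reads per 1000000 between 2 related genes within each heart (vertical axes, each starting at 0), in edKO hearts (red, n = 4) and WT hearts (blue, n = 3), with replicate names over the points and the mean ± SD to their right. The groups are apart only for Xirp2/Xirp1, at 0.147 to 0.307 in edKO hearts and 0.0728 to 0.093 in WT hearts; after adjustment over the 4 pairs, a single separated pair cannot go below 0.114.

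Nrap, the nebulin-related anchoring protein, carries a LIM domain beside its actin-binding nebulin repeats and serves in the assembly of new myofibrils (chr19:56320035-56390037, minus strand). It had 320, 280, 497 and 398 normalised reads per 1000000 in edKO hearts, against 251, 295 and 285 in WT hearts. Replicates 15 and 33 were clearly above the WT range, and edKO replicate 6 was inside it. The mean was 374 ± 95.7 in edKO hearts and 277 ± 23.2 in WT hearts, and the log2 difference of 0.40 (SE 0.17, 95% interval 0.03 to 0.77) was not called (limma adjusted p = 0.222). Without edKO replicate 15 it was 0.25 (limma adjusted p = 0.402), and over the 7 fits that leave out a library it ran between 0.25 and 0.53.

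Acta1 encodes the skeletal muscle α-actin (chr8:123891769-123894751, minus strand). It had 110, 51.4, 97.9 and 75.8 normalised reads per 1000000 in edKO hearts, against 225, 155 and 93.5 in WT hearts. WT replicate 28 lay below edKO replicates 5 and 15, so the groups overlap, and the WT hearts were widely spread. The mean was 83.7 ± 25.7 in edKO hearts and 158 ± 65.6 in WT hearts, and the log2 difference of -0.88 (SE 0.29, 95% interval -1.51 to -0.24) was not called (unadjusted p = 0.0115, limma adjusted p = 0.123). Its sign was opposite to that of Ankrd1, Xirp2 and Csrp3, and its interval lay wholly below 0. Without WT replicate 1 the log2 difference was -0.58 and without WT replicate 28 it was -1.21 (limma adjusted p = 0.38 and 0.0607), the ends of its range over the 7 fits that leave out a library.

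Actc1, the cardiac α-actin that makes up most of the sarcomeric actin in heart, had 8819, 7161, 9251 and 9801 normalised reads per 1000000 in edKO hearts, against 9766, 9229 and 7622 in WT hearts (log2 difference -0.02, 95% interval -0.43 to 0.39, limma adjusted p = 0.965). Acta1 made up 1.23%, 0.713%, 1.05% and 0.767% of the Acta1 and Actc1 sum in edKO hearts, against 2.25%, 1.66% and 1.21% in WT hearts. The lowest WT share lay just below the highest edKO share. The difference in log2 ratio of Acta1 to Actc1 was -0.85, with an exact permutation p of 0.0857, adjusted over 4 gene pairs to 0.171.

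Skeletal and smooth muscle markers are given here because Acta1 is also an actin of skeletal muscle. Of 14 skeletal muscle markers 9 were measured, with a median log2 difference of -1.17, and Tnni2, the fast skeletal troponin I, was lower in edKO hearts at 3.45, 1.9, 2.48 and 2.5 normalised reads per 1000000, against 5.97, 7.46 and 8.04 in WT hearts (limma adjusted p = 0.0058). Myh4, a fast skeletal myosin, had 1.88, 0.0904, 1.83 and 0.0204 in edKO hearts, against 2.74, 7.19 and 3.45 in WT hearts (not called, 0.0627). Myh8, the perinatal skeletal myosin, had a log2 difference of -1.43 and was not called. Its highest value, 24.4, was in WT replicate 28, the WT heart lowest in Acta1. Myh1, Mylpf and Tnnt3 had log2 differences of -1.35, -1.17 and -0.91, none of them called. Myl1 ran the other way. Myl1 had 82.5, 61.7, 44.1 and 164 in edKO hearts, against 61.4, 53.2 and 79.8 in WT hearts (log2 difference 0.28, limma adjusted p = 0.691). The log2 difference was -0.10 for Actn3 and -0.02 for Ckm, neither of them called. Myh4, Myh1, Mylpf and Actn3 were each under 1 in at least 1 library, and Myog, Pax7, Myh2, Myh3 and Tnnc2 have no row. The summed level of the 9 ran between 2376 and 2776 in edKO hearts and between 2360 and 2745 in WT hearts, nearly all of it Ckm, which the heart expresses too. The 6 smooth muscle markers summed to between 770 and 1379 in edKO hearts and between 865 and 1632 in WT hearts. WT replicate 1, the highest for Acta1, was also the highest here, but 1336 of its 1632 came from Acta2, itself an actin. Cnn1 was also highest in WT replicate 1 (62.8), while Tagln was lowest there (79.2) of the 7 libraries. The part of these markers in the Acta1 values was not tested.

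**Figure D3:**
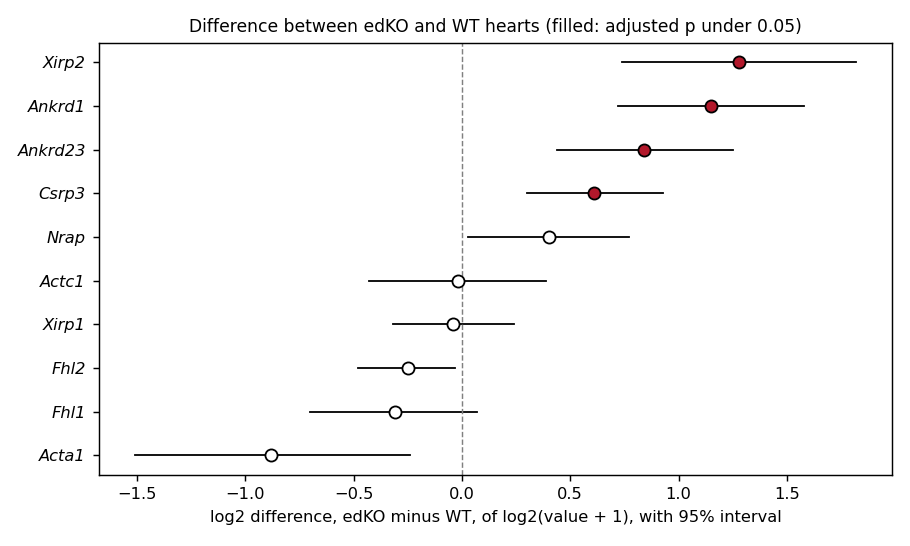
Log2 difference, edKO minus WT, of log2(value + 1) for the 9 measured genes and Actc1 (points) with 95% intervals from limma (lines, n = 4 edKO and 3 WT hearts); filled points have an adjusted p under 0.05. Xirp2 (1.28) and Ankrd1 (1.15) lie farthest to the right, Acta1 (-0.88) farthest to the left, and Xirp1 (-0.04) and Actc1 (-0.02) at 0.

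Per length, the listed genes spanned a wide range of levels, here given as normalised reads per 1000000 per kb of the longest coding transcript. On that scale Csrp3 was the highest listed gene in both groups, at 1435 ± 248 in edKO hearts and 927 ± 61 in WT hearts, below Actc1 at 5946 ± 773 in edKO hearts and 6023 ± 757 in WT hearts. The level of Ankrd1 was 717 ± 140 in edKO hearts and 326 ± 83.3 in WT hearts, and that of Fhl2 was 462 ± 42 in edKO hearts and 549 ± 31 in WT hearts. Their order was therefore Ankrd1 over Fhl2 in edKO hearts and Fhl2 over Ankrd1 in WT hearts, with no overlap between the 2 genes within either group.

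The middle of the order was not resolved. In edKO hearts Nrap (67.9 ± 17.4), Fhl1 (62.8 ± 16.6), Acta1 (57.9 ± 17.9) and Xirp1 (40.6 ± 6.33) each overlapped the next. In WT hearts Acta1 (109 ± 45.5) overlapped Fhl1 (76.2 ± 7.82), and Nrap (50.4 ± 4.19) overlapped Xirp1 (41.7 ± 5.26), with Fhl1 above Nrap in every library. Ankrd23, at 24.7 ± 5.81 in edKO hearts and 13.5 ± 2.96 in WT hearts, and Xirp2, at 4.55 ± 2.01 in edKO hearts and 1.71 ± 0.106 in WT hearts, were the lowest of the 9 in both groups. All per-length values are levels, with n = 4 edKO and n = 3 WT hearts, and rest on the annotated transcript that was used. The rank of Csrp3 turns with it: per kb of exon union Csrp3 was at 483 in edKO hearts and 312 in WT hearts, below Ankrd1 (502) in edKO hearts and below Fhl2 (452) in WT hearts.

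The 9 genes did not vary evenly over the edKO hearts. Replicate 6 held the lowest edKO value for 7 of the 9, against 23.5% of all genes, and replicate 15 the highest for 5 of the 9, against 20.4% of all genes. On the log2 scale relative to the WT mean, Xirp2 stood at 1.21, 0.70, 2.07 and 1.15 in edKO replicates 5, 6, 15 and 33, and Csrp3 at 0.68, 0.22, 0.83 and 0.73. Acta1, whose values ran downward, was also lowest in replicate 6, at -1.51. The coefficient of variation was higher in edKO than in WT hearts for 7 of the 9, against 63.4% of all genes. In WT hearts the largest deviations belonged to Acta1, at 0.59, 0.07 and -0.66 in replicates 1, 2 and 28.

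**Figure D4:**
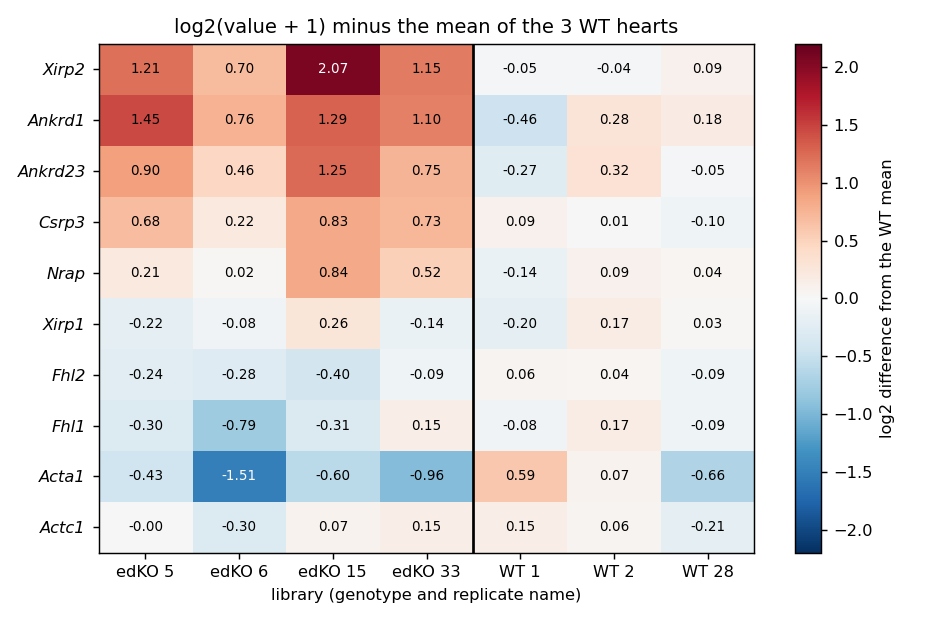
Each cell gives log2(value + 1) of a gene in a library minus the mean of the 3 WT hearts, for the 9 measured genes and Actc1 (rows) in the 4 edKO and then the 3 WT libraries (columns), with red above and blue below the WT mean. Xirp2, Ankrd1, Ankrd23 and Csrp3 are above the WT mean in all 4 edKO hearts and least so in replicate 6; Acta1 ranges between -1.51 and -0.43 in edKO hearts and between -0.66 and 0.59 in WT hearts.

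Genes outside the list were ranked by how closely their 7-library profile matched that of Ankrd1, Xirp2 and Csrp3, as the root mean square difference of log2 profiles centred on the WT mean, over 6683 genes at or above the median level. This distance holds the group difference itself, so a near gene is one with a similar rise, and it is given as a description. Nearest to Ankrd1 were Dpep1, a membrane dipeptidase (0.207), Ctgf, a matrix protein and YAP target (0.243), and Per1, a circadian clock gene (0.271). Nearest to Xirp2 were Slc2a1, the glucose transporter GLUT1 (0.343), Myh7, the slow myosin heavy chain (0.363), and Ctgf (0.376). Nearest to Csrp3 were Oxct1, an enzyme of ketone body use (0.0987), Arfgap3, a Golgi protein (0.12), and Slc1a5, a glutamine transporter (0.133). Of the listed genes, Ankrd23 lay at 0.294 from Ankrd1, and Nrap at 0.233 from Csrp3.

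Dpep1 had 70, 36.4, 48.6 and 45.7 normalised reads per 1000000 in edKO hearts, against 20.8, 28.4 and 22.2 in WT hearts, with its highest value in replicate 5 and its lowest edKO value in replicate 6, as for Ankrd1. Its call (limma adjusted p = 0.0132) did not hold without WT replicate 1 (0.0766) or WT replicate 28 (0.0742). Oxct1 had 354, 306, 378 and 381 in edKO hearts, against 257, 220 and 206 in WT hearts (limma adjusted p = 0.00774); it too was lowest among edKO hearts in replicate 6, and its call did not hold without WT replicate 2 (0.0534) or WT replicate 28 (0.0512). Slc2a1 had 60.8, 44.1, 58.8 and 54.2 in edKO hearts, against 26.9, 24.7 and 21.7 in WT hearts (limma adjusted p = 0.000638), and was called whichever library was left out.

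Partners of these proteins were followed in gene lists, whose limma counts stand against the 2.08% of all genes called higher and 2.13% called lower. The other counts of each list stand against 534, 1052 and 429 of the 13788 genes called by edgeR, DESeq2 and voom. Those at an unadjusted p under 0.05 stand against 19.2% of all genes. Of 22 genes of the titin I-band and the Z-disc, 2 were called higher and 0 lower, with a median log2 difference of 0.13, 6 genes at an unadjusted p under 0.05, and 2, 4 and 2 called by edgeR, DESeq2 and voom. These 2 were Pdlim5, a PDZ and LIM scaffold of the Z-disc, at 619, 377, 543 and 508 normalised reads per 1000000 in edKO hearts, against 346, 290 and 332 in WT hearts (1.57-fold, limma adjusted p = 0.0358), and Sqstm1, the autophagy receptor p62, at 332, 319, 287 and 324 in edKO hearts, against 221, 252 and 242 in WT hearts (1.32-fold, 0.0283); 15.1% of the 61-base windows of Sqstm1 are shared with Mrnip. Pdlim5 lost its call without edKO replicate 5 or 15 or any WT replicate (limma adjusted p between 0.0805 and 0.166), and Sqstm1 without edKO replicate 5 or 6 or any WT replicate (between 0.0548 and 0.104). Neither was called with no mean-variance trend (0.0895 for Pdlim5 and 0.0804 for Sqstm1) or with Xist as a covariate (0.0792 for Pdlim5 and 0.0661 for Sqstm1).

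Of 21 genes of the intercalated disc and of cell adhesion, and of 21 other LIM domain genes, limma called 0 in either direction. The intercalated disc list had a median log2 difference of 0.02, with 4 genes at an unadjusted p under 0.05, and 0, 1 and 0 called by edgeR, DESeq2 and voom. Its 2 most abundant genes were Itgb1, the integrin β1 chain, at 767 ± 18.9 in edKO hearts and 722 ± 19.6 in WT hearts, and Ctnna1, α-catenin, at 730 ± 15.9 in edKO hearts and 689 ± 29.7 in WT hearts. The other LIM list had a median of 0.10, with 6 genes at an unadjusted p under 0.05, and 0, 3 and 0 called by edgeR, DESeq2 and voom. Csrp1, the smooth muscle relative of Csrp3 and one of the 2 most abundant of that list, averaged 330 ± 67 in edKO hearts and 254 ± 22.2 in WT hearts (log2 difference 0.36, limma adjusted p = 0.192). The other was Lmo7, at 411 ± 90.7 in edKO hearts and 380 ± 60.9 in WT hearts.

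Of 5 other actin isoforms 0 were called by limma, edgeR, DESeq2 or voom, with 0 at an unadjusted p under 0.05 and a median log2 difference of -0.12. Acta2, the smooth muscle α-actin, averaged 716 ± 220 in edKO hearts and 971 ± 371 in WT hearts.

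Among 22 measured genes of SRF and its cofactors, of TEAD factors with YAP, and of cardiac transcription factors known to act on promoters of these genes, 0 were called higher and 1 lower, with a median log2 difference of -0.05, 7 genes at an unadjusted p under 0.05, and 1, 3 and 1 called by edgeR, DESeq2 and voom. The gene called lower was Nkx2-5, a cardiac homeobox factor and a known activator of Ankrd1 in mouse heart, at 42.5, 44.5, 45 and 42.5 normalised reads per 1000000 in edKO hearts, against 82.5, 80.7 and 77.1 in WT hearts (1.82-fold lower in edKO hearts, limma adjusted p = 0.000192). It was called whichever library was left out, with limma adjusted p between 0.00017 and 0.00358. The part of Nkx2-5 in the Ankrd1 values was not tested.

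Of 13 measured genes that also respond to load in heart, 3 were called higher and 0 lower, against 2.08% and 2.13% of all genes. The median log2 difference was 0.37, with 6 genes at an unadjusted p under 0.05, against 19.2% of all genes. The numbers called by edgeR, DESeq2 and voom were 3, 6 and 3, against 534, 1052 and 429 of all 13788 genes. Nppb, the gene of the B-type natriuretic peptide, had 1132, 538, 654 and 659 normalised reads per 1000000 in edKO hearts, against 143, 163 and 107 in WT hearts (5.26-fold, limma adjusted p = 0.000154). Ctgf had 379, 248, 328 and 244 in edKO hearts, against 87.8, 136 and 110 in WT hearts (2.67-fold, 0.00117). Myh7 had 14817, 13317, 16434 and 10067 in edKO hearts, against 4797, 7091 and 5087 in WT hearts (2.41-fold, 0.00995), and lost its call without WT replicate 28 (0.0546). For all 3, as for Ankrd1, Ankrd23, Csrp3 and Xirp2, no edKO heart lay in the WT range. Groups that do not overlap were found in 17.4% of all genes, and these 3 genes are named because they were called. Part of the transcript of Ctgf (16.1% of 61-base windows) is shared with Gm15270. Part of that of Myh7 (16.8%) is shared with other annotated genes, chiefly Myh6 (12.9%). Myh6 averaged 13975 ± 472 normalised reads per 1000000 in edKO hearts and 15296 ± 628 in WT hearts.

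Other cell types also varied between libraries, with values given here beside the called genes. The atrial markers summed to between 4164 and 8122 in edKO hearts and between 4557 and 5253 in WT hearts, and the ventricular markers to between 7869 and 8248 in edKO hearts and between 6460 and 9908 in WT hearts. The fibroblast markers summed to between 2604 and 5462 in edKO hearts and between 4431 and 5721 in WT hearts, the endothelial markers to between 971 and 1126 in edKO hearts and between 884 and 1135 in WT hearts, and the macrophage markers to between 53.8 and 69.5 in edKO hearts and between 62.5 and 71.5 in WT hearts. The erythroid markers summed to between 27749 and 53811 in edKO hearts and between 24080 and 40411 in WT hearts. All these ranges overlap between the groups, and their part in the differences of Ankrd1, Ankrd23, Csrp3 and Xirp2 was not tested. Scaled to the cardiomyocyte markers, the first 3 had log2 differences of 1.17, 0.86 and 0.64, and all 4 were called (limma adjusted p between 0.0064 and 0.0329).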

How the data were processed

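Per the labels' protocols, whole-heart RNA (1 to 10 ng) was turned into amplified cDNA with an Ovation kit and read as single 61-base reads. Build GRCm38, RSEM 1.3.1, cutadapt and limma are named in the submitters' processing notes; their order, the annotation release, the filter on low genes and any strand setting are not stated. The table used here, deposited by the authors, gives a normalised expression signal for 13788 genes in each library. Each value equals (reads + 0.5) divided by an effective library size, times 1000000: 100% of 96516 values came out as whole reads within 1e-06. Amplification from little RNA means that reads are not independent molecules, and the floors given cover counting error only.

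Differences were fitted on log2(value + 1) of all 7 libraries in limma 3.58.1 under R 4.3.3, with a trend of variance on mean and no covariate. Its 2-sided p-values were adjusted by Benjamini and Hochberg's method across the 13788 genes, with calls at an adjusted p under 0.05. Every gene was kept; lists count a gene with an older and a newer symbol once. Fold changes are on the log2(value + 1) scale and understate those of low genes. Recovered reads were tested with edgeR 4.0.16 as an alternative, which called 534 genes, against 580 by limma, and with DESeq2 1.42.0 and voom. Ratios of related genes were tested by exact permutation over 35 assignments, adjusted over 4 pairs. The fitting steps were tested on simulated data. Other alternatives were pseudocounts of 0.1 and 5, filters on low values, scalings, variance settings, a Xist covariate and leaving out each library.

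The genes and gene lists were chosen with earlier results of these data known. The genes named in the text are every listed gene, Actc1, Rxra and Rxrb, the called genes of each partner list or its 2 most abundant genes where none was called, and the 3 genes nearest in profile to Ankrd1, Xirp2 and Csrp3; single muscle markers were named after their values were seen. Counts of any 2 libraries differed by more than sampling noise (chi-square over its degrees of freedom 9.07 to 56.1), so no library's counts were a copy of another's. Whether 2 libraries came from the same heart cannot be told this way, because amplified reads are not independent molecules. Positions are those of GENCODE M21 for GRCm38. The results of 1 further gene list are not reported here.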

Additional observations from a re-analysis of the deposited data

How the results depend on the processing

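With another setting, Ankrd1 kept its direction and call in all 7 fits without 1 library and in the other 14 settings. The number of the 9 genes called higher was 4 in the fit reported and 1 with no mean-variance trend, and leaving out 1 library gave 1 to 4, with 1 without WT replicate 1 or 28 and 2 without WT replicate 2 or edKO replicate 5 or 15. Ankrd23, Xirp2 and Csrp3 were not called with no trend (limma adjusted p = 0.0722, 0.0502 and 0.0794), nor Csrp3 with Xist as a covariate (0.0587). No setting called any of the 9 genes lower. Xirp1 changed sign, at 0.03 with the Xist covariate, and without 1 library ran between -0.15 and 0.04. Actc1 was at 0.00 after scaling to cardiomyocyte markers, and without 1 library ran between -0.13 and 0.07. Neither was called in any setting. Over all genes, 580 were called in the fit reported, 370 with no trend, 364 with the Xist covariate, 1284 with library weights, 1052 by DESeq2 and 222 to 1177 without 1 library. The cause of these shifts was not tested. No paired analysis was possible because the groups share no replicate number. With 3 WT hearts, the smallest exact permutation p is 0.0286.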
